A study of Mus musculus with 6 samples.

Results

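The genes described here are 7 heterochronic and oncofetal regulators of the mouse: Lin28a, Lin28b, Igf2bp1, Igf2bp2, Igf2bp3, Hmga1 and Hmga2. They were chosen by name, and a spot on the array was taken as theirs where the probe annotation gave it that gene symbol and no other. By this rule 5 of the 7 genes had spots, 14 in all, among 19087 genes and 33653 spots with a single symbol. No spot was annotated to Igf2bp2 or to Hmga1, so neither gene has a value here.

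The arrays followed the skeleton of the mouse hind limb at the level of the tibia and fibula, in outbred Swiss white embryos with no transgene, knockout or treatment. At 11.5 days post coitum (dpc) the tissue was pre-condensed mesenchyme (PCM) pooled from 4 hind limbs, at 12.5 dpc it was mesenchymal condensation (MC) pooled from 3, and at 13.5 dpc it was cartilage anlagen (CA) pooled from 4, all dissected from sections and each pool from separate mice. The pools were amplified and compared on 6 two-colour 44K oligonucleotide arrays. Each pair of ages was hybridised on 2 arrays with Cy5 and Cy3 exchanged. Dye Combination 1 is the array with the later age in Cy5 and Dye Combination 2 the array with the later age in Cy3. Since there was 1 RNA pool per age, no test between ages was possible, and the error given with a value is the technical error, taken between the 2 arrays of a pair as their deviation to each side of the mean. It contains no difference between embryos.

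Lin28a and Lin28b are RNA-binding proteins with a cold shock domain and zinc knuckles, which bind precursors of the let-7 microRNA family and block their maturation. In nematodes lin-28 and let-7 were found as genes that set the timing of larval cell fates, and in mammals LIN28 proteins mark early embryos, stem cells and many tumours. Mature let-7 represses many messengers, among them those of Lin28, Hmga2, Igf2bp1 and Igf2bp3. The Igf2bp proteins (also called IMPs) bind messengers such as Igf2 and Myc and govern their stability, transport and translation. The Hmga proteins bind AT-rich DNA through AT-hook motifs and alter chromatin structure, and mice without Hmga2 are the small pygmy mutants.

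The let-7 sequence is shown because its seed is what the repressed messengers pair with. The 4 mature microRNAs below are from RefSeq (GRCm38.p6), with the seed, bases 2 to 8 from the 5′ end, in capitals.
mmu-let-7a-5p: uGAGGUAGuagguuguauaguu
mmu-let-7d-5p: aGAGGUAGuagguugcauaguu
mmu-let-7g-5p: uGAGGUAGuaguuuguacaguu
mmu-let-7j: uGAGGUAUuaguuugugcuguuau
The entry for let-7a is from chr13:48538239-48538260 on the minus strand, let-7d from chr13:48536078-48536099 on the minus strand, let-7g from chr9:106178846-106178867 on the plus strand and let-7j from chr3:140028281-140028304 on the plus strand. Of the 11 let-7 family names in the table, counting miR-98, 10 shared the seed GAGGUAG and 1, let-7j, did not. Among all 1679 mature mouse names, 11 had that seed. No spot on the array was annotated to a let-7 gene, so the microRNAs themselves were not measured.

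The precursor of let-7g is shown because LIN28 acts on the hairpin, where its zinc knuckles recognise a GGAG motif, capitalised here.
Mirlet7g hairpin: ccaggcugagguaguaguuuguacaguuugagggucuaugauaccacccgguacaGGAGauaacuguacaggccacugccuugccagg
This hairpin is at chr9:106178840-106178927 on the plus strand (GRCm38.p6). GGAG was found on the transcribed strand of 10 of the 13 let-7 family hairpins in the table and of 447 of all 1005 mouse hairpins, or 44.5%, with hairpins taken at whatever length the table gives. A match is a string of letters and no sign that LIN28 bound there.

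In total the 6 arrays each held 45220 spots, of which 136 to 1905 per array had no value. The median technical error over spots was 0.217 log2 in MC against PCM, 0.236 in CA against MC and 0.213 in CA against PCM, and across spots, which are not independent, the 2 arrays correlated with Pearson's r of 0.397, 0.332 and 0.518 in the same order. The arrays differed in their medians and were centred. Without centring the median of all genes shifted by 0.45 log2 in MC against PCM, by -0.28 in CA against MC and by 0.17 in CA against PCM. Of the cartilage markers, which the CA label calls for, 6 of 6 were 3-fold or more higher in CA than in PCM, with a median of 4.61 log2, where 2.93% of all genes were. Intensities were not used here. A spot whose values were ratios of whole numbers up to 12 on at least 2 arrays is called dim below.

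As genes, with all spots of a gene averaged, all 5 measured timing genes had values below 0 in 13.5 against 11.5 dpc, and 0 of them passed 3-fold in any of the 3 comparisons. The study's 3-fold rule also required an average intensity above background, which was not applied here. From the transcript the study lists for Lin28b, or from its spots that were not dim, Lin28b had -2.07 in CA against PCM, past 3-fold. Lin28b and Igf2bp3, both at least 2-fold lower in CA than in PCM, were the 2 with the largest differences. Igf2bp3 kept this side of 2-fold under all its alternatives, at -1.50 to -1.14, whereas Lin28b did not, with -0.90 without centring, -0.52 without the second array of CA against PCM, -0.56 on the indirect path and -0.43 by the median of its spots. Of all genes, 0.299% were at least 3-fold lower and 1.24% at least 3-fold higher in MC against PCM, 0.776% and 1.35% in CA against MC, and 2.57% and 2.93% in CA against PCM, where 8.5% were at least 2-fold lower. A value below 0 was found for 5 of the 5 timing genes in MC against PCM (50.8% of all genes), for 3 of 5 in CA against MC (53.5%) and for 5 of 5 in CA against PCM (45.4%). Without centring it was 4 of 5 in each comparison, with Lin28a at 0.06 in MC against PCM and Igf2bp1 at 0.15 in CA against PCM. The medians of all genes were then 0.44, -0.32 and 0.24 in the same order, and the share of all genes below 0 was not counted. Without the second array of CA against PCM, 3 of 5 timing genes were below 0 in that comparison, with Lin28a at 0.13 and Igf2bp1 at 0.18. The median of the 5 genes was -0.83 log2 in 13.5 against 11.5 dpc, against 0.07 for all genes. This median is the value of Hmga2, which had a technical error of 0.81.

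**Figure D1:**
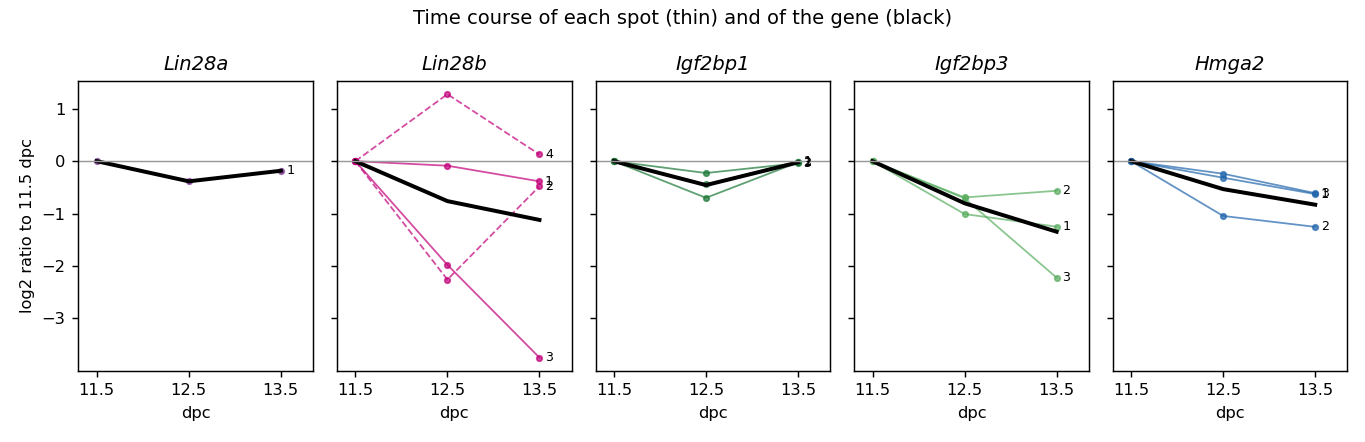
Level of each measured timing gene at 11.5, 12.5 and 13.5 dpc, in log2 relative to 11.5 dpc, from the fit to all 6 arrays. Thin lines are single spots and the thick line is their mean. Igf2bp3 ends at -1.35 and Lin28b at -1.12, and the 4 Lin28b lines end between -3.75 and 0.13.

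Counted by spot, 13 of 14 spots lay below 0 in 12.5 against 11.5 dpc, where 52.3% of all spots did, and 13 of 14 in 13.5 against 11.5 dpc, where 46.8% did. In 13.5 against 12.5 dpc 8 of 14 were below 0, where 52.9% of all spots were. Without centring, a count made after the data were seen, 7 of 14 spots were below 0 in MC against PCM, 11 of 14 in CA against MC and 10 of 14 in CA against PCM. The medians of all genes were then 0.44, -0.32 and 0.24 in the same order, and the share of all spots below 0 was not counted. The centred count in CA against PCM also moved with the arrays used. It was 7 of 14 without the second array of that pair, 9 of 14 on the indirect path and 9 of 13 on Dye Combination 1 arrays. On Dye Combination 2 arrays it was 13 of 14, and without the second array of CA against MC it was 14 of 14. Spots of 1 gene measure the same pool, so the counts by spot are not counts of independent genes. At least 3-fold lower were 2 spots in 12.5 against 11.5 dpc (0.58% of all spots), 1 spot in 13.5 against 12.5 dpc (1.29%) and 2 spots in 13.5 against 11.5 dpc (4%). At least 3-fold higher was 1 spot, a dim one of Lin28b, in 13.5 against 12.5 dpc (1.86%). On single arrays, 8 of the 12 spots measured on both arrays of 13.5 against 11.5 dpc lay below 0 on both (37% of all spots) and 0 lay above 0 on both (33.8%).

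**Figure D2:**
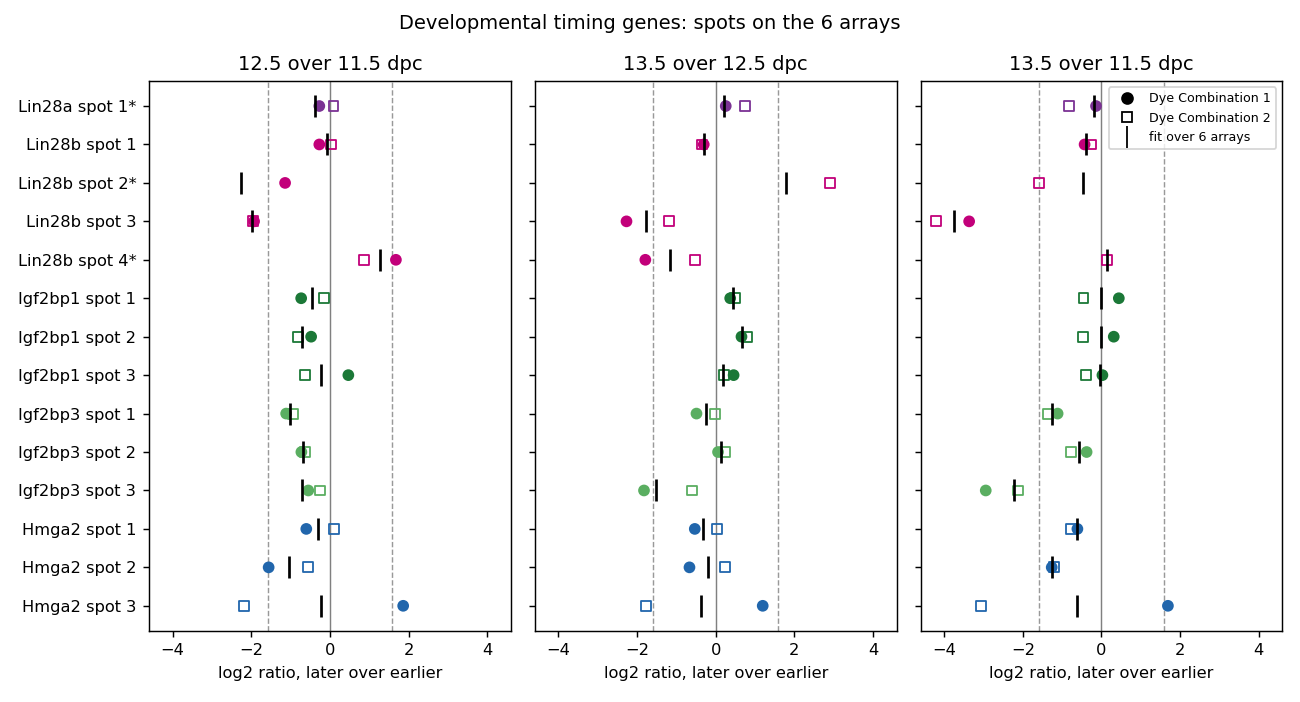
Log2 ratio of the later over the earlier age for each of the 14 spots on each of the 6 arrays, centred on the array median. Each panel is a pair of ages, the 2 symbols are the 2 dye combinations, the bar is the fit over 6 arrays, dashed lines lie at 3-fold, and an asterisk marks a dim spot. The spot Lin28b 3 was below 0 on 6 of 6 arrays, and the 2 arrays of a pair lay far apart for Hmga2 3.

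Lin28b, the paralogue that in cultured mammalian cells has been found in the nucleus as well as the cytoplasm, was represented by 4 spots that did not give one answer. Spot 3, designed for NM_001031772, had 12.5 over 11.5 dpc log2 ratios of -1.93 and -1.95 on the 2 arrays, 13.5 over 12.5 dpc ratios of -2.27 and -1.19, and 13.5 over 11.5 dpc ratios of -3.36 and -4.21. It was below 0 on 6 of 6 arrays, whichever dye carried the later age. In the fit it fell by 1.98 in 12.5 against 11.5 dpc and by 1.77 in 13.5 against 12.5 dpc, each more than 3-fold, with technical errors of 0.01 and 0.54. Over both days this was 13.4-fold lower in CA than in PCM, with a technical error of 0.42 log2.

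Spot 1 carried the same accession and was nearly flat. Its ratios were -0.27 and 0.03 for 12.5 over 11.5 dpc, -0.30 and -0.36 for 13.5 over 12.5 dpc, and -0.43 and -0.28 for 13.5 over 11.5 dpc. The fitted difference between 13.5 and 11.5 dpc was -0.38, or 1.31-fold lower, with a technical error of 0.08. The 2 spots of this accession therefore differed by 3.36 log2, and a gap that wide was found for 18 of 4003 genes with 2 spots that were not dim (0.45%), whose median gap was 0.49. Which of the probes follows the Lin28b messenger was not tested, since the probe sequences were not used.

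The other 2 Lin28b spots were dim and incomplete. Spot 2, designed for AK012973, had a value on 3 arrays, at -1.14 for 12.5 over 11.5 dpc, 2.90 for 13.5 over 12.5 dpc and -1.60 for 13.5 over 11.5 dpc, and these 3 do not add up around the loop of ages. Its fitted values of -2.26 in MC against PCM and 1.78 in CA against MC are among the spots counted as 3-fold different above. Spot 4, designed for AK044904, had 1.68 and 0.87 for 12.5 over 11.5 dpc, -1.79 and -0.52 for 13.5 over 12.5 dpc, and 0.14 on the only array with a value for 13.5 over 11.5 dpc. Its fitted level was 2.42 times as high at 12.5 as at 11.5 dpc, against the direction of the other 3. Averaged over its spots, Lin28b had fitted differences of -0.76 in MC against PCM, -0.36 in CA against MC and -1.12 in CA against PCM, the last with a spread of 1.77 (SD, n = 4 spots). The division between days differed between sets of arrays, which also changed the spots that were averaged. The first-day value was -0.07 on Dye Combination 1 and -1.49 on Dye Combination 2 arrays, and the second-day value -1.35 and 0.11. Dim spot 2 had no fit on Dye Combination 1 arrays and entered at -4.50 and 2.90 on Dye Combination 2 arrays. With the replicate block, dye combination as a term, the second day turned to 0.75, and spot 2 with its 3 arrays was among the spots averaged. Of all genes, 6.58% had a 13.5 against 11.5 dpc value as low or lower. From the 2 spots that were not dim, the gene had -2.07 in 13.5 against 11.5 dpc, which passes the 3-fold threshold. The span of 3.88 log2 between its 4 spots was matched or exceeded by 8 of 662 genes with 4 spots (1.21%).

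Lin28a, the paralogue best known from embryonic stem cells, had 1 spot, and it was dim. The ratios were -0.27 and 0.09 for 12.5 over 11.5 dpc, 0.26 and 0.74 for 13.5 over 12.5 dpc, and -0.14 and -0.82 for 13.5 over 11.5 dpc. The 6 arrays thus split into 3 below and 3 above 0. Fitted differences were -0.38, 0.20 and -0.18 for these comparisons, in the same order, with technical errors of 0.18, 0.24 and 0.34, and the direct and indirect paths from 11.5 to 13.5 dpc missed each other by 0.89. Leaving out the second array of 13.5 over 11.5 dpc turned the overall difference to 0.13. No direction can be given for Lin28a at this signal.

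Igf2bp3 (IMP3), a fetal RNA-binding protein that reappears in many carcinomas, had the lowest averaged value of the 5 genes in CA against PCM and the smallest technical error of an averaged value there. Its 3 spots shared the accession NM_023670. Averaged over them, the ratios were -0.80 and -0.60 for 12.5 over 11.5 dpc, -0.75 and -0.13 for 13.5 over 12.5 dpc, and -1.48 and -1.42 for 13.5 over 11.5 dpc, so all 6 arrays were below 0. The fit gave levels of 2.54 at 11.5 dpc and 1.46 at 12.5 dpc relative to 1 at 13.5 dpc. The total difference of -1.35 had a technical error of 0.03 between arrays once the spots were averaged, while spots 1, 2 and 3 alone had 0.12, 0.20 and 0.42. The spread between spots was 0.83 (SD, n = 3 spots), and 4.08% of all genes had a value as low or lower.

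The 3 Igf2bp3 spots lay on the same side in 13.5 against 11.5 dpc and differed in size and timing. Spot 3 had -0.55 and -0.26 for 12.5 over 11.5 dpc, -1.82 and -0.60 for 13.5 over 12.5 dpc, and -2.94 and -2.11 for 13.5 over 11.5 dpc, and in the fit it fell by 2.22, or 4.67-fold, with a technical error of 0.42. Spot 1 had -1.11 and -0.93, then -0.49 and -0.02, then -1.12 and -1.36 for the same 3 pairs of arrays. Its fitted difference was -1.01 in the earlier day and -0.24 in the later one. Spot 2 had -0.73 and -0.63, then 0.06 and 0.23, then -0.38 and -0.78, and a fitted total of -0.56. By spots 1 and 2 most of the difference lay between PCM and MC, and by spot 3 most of it lay between MC and CA. A span as wide as the 1.66 log2 between these spots was found in 16.8% of genes with 3 spots.

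Igf2bp1 (IMP1), which binds Igf2, Myc and beta-actin messengers and whose loss dwarfs mice, had nearly the same fitted level at 13.5 as at 11.5 dpc. Averaged over 3 spots, it had -0.25 and -0.53 for 12.5 over 11.5 dpc, 0.49 and 0.51 for 13.5 over 12.5 dpc, and 0.26 and -0.44 for 13.5 over 11.5 dpc. In these averages both arrays of the first day were below 0 and both of the second day above it, while the 2 arrays spanning both days disagreed in sign. Spot 3 alone had 0.47 and -0.63 for 12.5 over 11.5 dpc, a technical error of 0.55. The fitted differences were -0.46 in MC against PCM, 0.43 in CA against MC and -0.02 in CA against PCM, with technical errors of 0.14, 0.01 and 0.35. In CA against MC spots 1, 2 and 3 alone had technical errors of 0.065, 0.077 and 0.12. Spot 2 had the widest excursion, with -0.48 and -0.81 for 12.5 over 11.5 dpc, 0.66 and 0.81 for 13.5 over 12.5 dpc, and 0.31 and -0.47 for 13.5 over 11.5 dpc, and spots 1 and 3 had fitted first-day differences of -0.44 and -0.23 and second-day differences of 0.43 and 0.19. A value below 0 on both arrays of the first day and above 0 on both of the second was found for 16% of all genes measured on every array. The spots of Igf2bp1, which carry 3 accessions, lay within 0.03 log2 of each other in 13.5 against 11.5 dpc, and 99.8% of genes with 3 spots had a span as wide or wider. Spots 1, 2 and 3 alone had technical errors of 0.45, 0.39 and 0.20 there, each wider than that span, so it shows no such precision. Without centring the 2 daily differences were -0.01 and 0.15, so the dip at 12.5 dpc, as read against 0, depends on the centring. The medians of all genes were then 0.44 and -0.32. Igf2bp1 lay below the median of all genes on the first day and above it on the second, with or without centring.

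Hmga2, the chromatin protein whose messenger carries many let-7 sites and which is high in early embryos, had 3 spots and an averaged difference of -0.83 in 13.5 against 11.5 dpc, or 1.78-fold lower, with a technical error of 0.81. Spots 1 and 2 each gave similar values on both arrays of this pair. Spot 2 had -1.56 and -0.56 for 12.5 over 11.5 dpc, -0.67 and 0.23 for 13.5 over 12.5 dpc, and -1.27 and -1.22 for 13.5 over 11.5 dpc, with a fitted difference of -1.25, or 2.38-fold lower, and a technical error of 0.02. Spot 1 had -0.60 and 0.10, then -0.53 and 0.03, then -0.61 and -0.77, with a fitted total of -0.63. Spot 2 had -1.04 in the earlier day and -0.21 in the later one, whereas spot 1 had -0.32 and -0.31.

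Spot 3 of Hmga2 followed the dye. Its deposited Cy5 over Cy3 values were 2.59 and 1.82 on the arrays of 12.5 and 11.5 dpc, 1.40 and 2.35 on those of 13.5 and 12.5 dpc, and 1.57 and 2.80 on those of 13.5 and 11.5 dpc, above 0 on 6 of 6 arrays although the ages change places between dyes. The component common to the dye rather than the age was 1.96 log2 after centring, a size reached by 0.24% of spots. Turned to later over earlier, this spot had 1.69 and -3.07 for 13.5 over 11.5 dpc, and its fitted difference of -0.61 had a technical error of 2.38. Without this spot, a choice made after its values were seen, Hmga2 had -0.94 in 13.5 against 11.5 dpc.

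**Figure D3:**
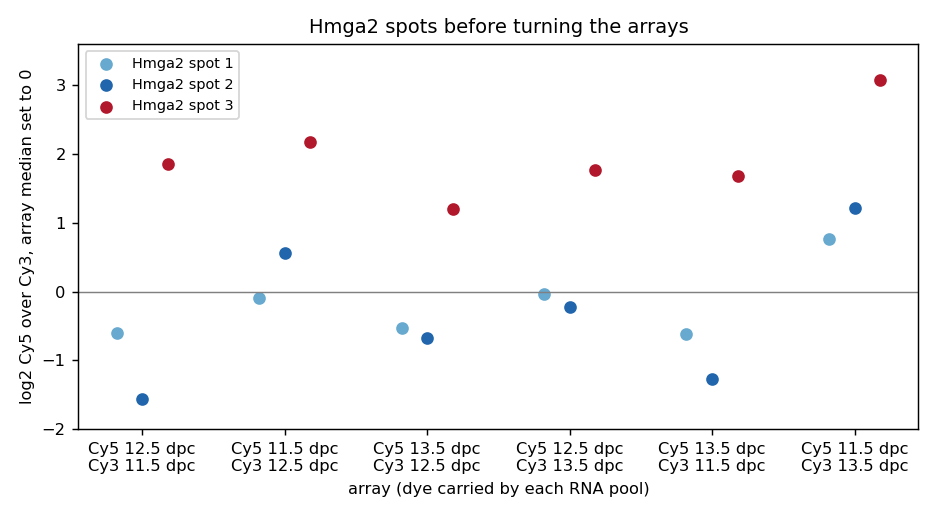
Log2 Cy5 over Cy3 values of the 3 Hmga2 spots on the 6 arrays, with each array median set to 0, before turning. A spot that follows age changes sign between the 2 dye combinations, whereas spot 3 stayed above 0 on all 6. Its deposited values, before centring, lay between 1.40 and 2.80.

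Ordered by the averaged difference between 13.5 and 11.5 dpc, the genes ran Igf2bp3 (-1.35), Lin28b (-1.12), Hmga2 (-0.83), Lin28a (-0.18) and Igf2bp1 (-0.02). The first 3 do not differ beyond their error, since the gaps between them are smaller than the spread between spots of Lin28b or Igf2bp3 and smaller than the technical error of Hmga2. Lin28a and Igf2bp1 likewise differed by less than either one's technical error.

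With 0 genes past the 3-fold threshold, likeness to other genes was looked at for single spots, a choice made after their values were seen, by the root mean square difference over the 6 arrays against 18424 genes measured on all of them. The genes nearest to spot 3 of Lin28b were Mgst1 at 0.26 log2, a microsomal glutathione transferase, Igf1 at 0.34, the growth factor, Rprm at 0.35, Glrb at 0.41 and Dab1 at 0.42. These 5 had 13.5 against 11.5 dpc values between -3.82 and -3.38, beside -3.75 for the spot. Nearest to spot 3 of Igf2bp3 were Pnck at 0.23, Hdac2 at 0.26, a histone deacetylase, Cnot11 at 0.31, Fam169b at 0.32 and Zfp936 at 0.32. Such a ranking places genes with a similar size of difference together and shows nothing about shared control.

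The remaining genes of the pathway were taken as lists. Of 12 genes of microRNA processing and let-7 decay, 9 were below 0 in 13.5 against 11.5 dpc (45.4% of all genes) and 0 passed 3-fold, with a median of -0.35. Tut4, the terminal uridylyl transferase that LIN28A recruits to tail pre-let-7, had the largest difference, at -1.26 and -1.89 on the 2 arrays and -1.56 in the fit, 2.95-fold lower and just short of the threshold, with 4 of 4 spots below 0. Most of it, -1.18, lay between 12.5 and 13.5 dpc. Its paralogue Tut7 had -0.77, and the nucleases Drosha and Dicer1 each had -0.35. The 2 spots of each nuclease disagreed, at -0.86 and 0.16 for Drosha and at -0.70 and 0.001 for Dicer1.

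Of 22 listed let-7 targets 17 were measured, 11 were below 0 in 13.5 against 11.5 dpc, 0 passed 3-fold, and the median was -0.45. Ccnd1, cyclin D1, had -0.39 and -1.03 on the 2 arrays and -0.70 in the fit, and Cdc25a, a cell cycle phosphatase, had -0.83. The 10 Ccnd1 spots, all below 0, measure the same pools. Mycn, the transcription factor of limb mesenchyme, had -0.87 from 2 spots of opposite sign at -2.20 and 0.47. Myc had 1.19 in the other direction, with ratios of 1.40 and 0.94 on the 2 arrays and 12 of 12 spots above 0. Of all genes, 45.4% were below 0 in this comparison. In 12.5 against 11.5 dpc 14 of the 17 targets were below 0, where 50.8% of all genes were. Without centring 7 of 17 were, beside a median of all genes of 0.44.

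Of 9 messengers known to be bound by Igf2bp proteins 8 were measured. In 13.5 against 11.5 dpc 6 were above 0 and 2 below 0, where 45.4% of all genes were below 0, and the median was 0.49. Igf2, the growth factor for which the family is named, had 3.85 and -2.04 on the 2 arrays over 11 spots, a technical error of 2.95, so its fitted 0.96 has no direction. H19, the noncoding neighbour of Igf2, had 1.75 and -0.06. Actb, the beta-actin messenger that Igf2bp1 carries in neurons and fibroblasts, had 0.37, and Mapk4 had -1.20.

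The relatives of Hmga1 and Hmga2 among the high mobility group genes lay on one side in the fitted values. All 8 measured of 9 were below 0 in each of the 3 comparisons, beside 50.8%, 53.5% and 45.4% of all genes in MC against PCM, CA against MC and CA against PCM. Without centring 5 of 8 were below 0 in MC against PCM, beside a median of all genes of 0.44. In CA against PCM 1 of the 8 was at least 3-fold lower (2.57% of all genes), and the median of the 8 was -0.96. The called gene was Hmgb3, a chromatin protein known from blood progenitors, with -0.91 and -2.99 on the 2 arrays from 1 spot and -1.97 in the fit. Hmgb2 had -1.29, Hmgb1 -0.95, Hmgn1 -0.98, Hmgn3 -0.96 and Hmgn2 -0.85. The 2 arrays were 0.73 and -2.37 for Hmgn2, a technical error of 1.55, so its fitted value has no direction. They were also far apart for Hmgb1, at -0.25 and -1.72, and for Hmgn1, at -0.36 and -1.87. The list moved with the dye, at a median of -0.40 with 6 of 8 below 0 on Dye Combination 1 arrays and -1.70 with 8 of 8 on Dye Combination 2 arrays.

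Among 6 genes linked to Hmga2, Cdkn2b rose 9.19-fold in 13.5 against 11.5 dpc, the only one past 3-fold, where 2.93% of all genes were at least 3-fold higher. Cdkn2b encodes the cyclin-dependent kinase inhibitor p15, and its ratios were 3.48 and 2.93 from 1 spot, with a difference of 0.69 in the first day and 2.51 in the second. Cdkn2a, the neighbouring inhibitor locus that Hmga2 keeps low in neural stem cells of young mice, had -0.91 and 1.13 on the 2 arrays over 10 spots, a technical error of 1.02, so its fitted 0.45 has no direction. Twist1, a mesenchymal transcription factor, had -1.09, and Plag1, Snai1 and Ccna2 had 0.54, 0.17 and -0.09. Of 6 other genes with a cold shock domain, the fold shared by the Lin28 proteins, 5 were measured. In 13.5 against 11.5 dpc 4 were below 0, where 45.4% of all genes were, and the median was -0.11. Carhsp1 had -0.65 and -1.26 on the 2 arrays and -0.95 in the fit. Its 11 spots, all below 0, measure the same pools.

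**Figure D4:**
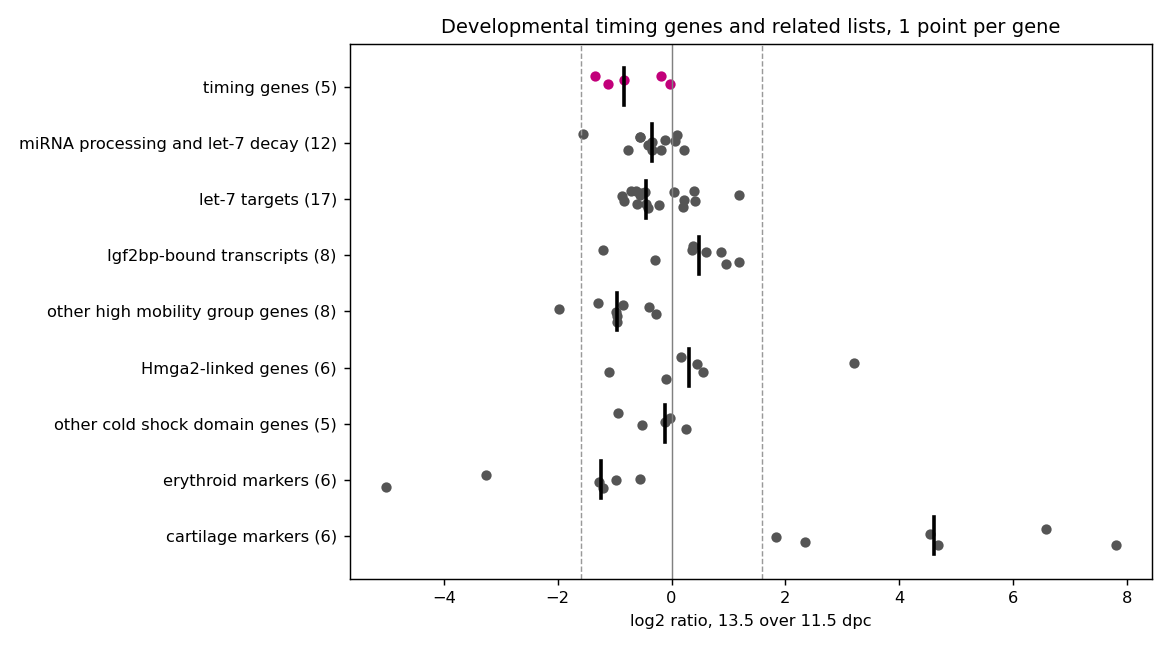
Log2 difference of 13.5 against 11.5 dpc for each gene of the timing genes, the related lists and the erythroid and cartilage markers, 1 point per gene, with a bar at the median and dashed lines at 3-fold. The 5 timing genes have a median of -0.83, which is the value of Hmga2, the other high mobility group genes -0.96, and the cartilage markers 4.61.

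Markers of other cells also differed between the pools, in which fewer cells of a type and less RNA per cell cannot be told apart. Of all genes, 45.4% were below 0, 2.57% at least 3-fold lower and 2.93% at least 3-fold higher in 13.5 against 11.5 dpc. In 12.5 against 11.5 dpc 50.8% were below 0 and 0.299% at least 3-fold lower. Of 8 erythroid markers 6 were measured, and 6 of 6 were below 0 in 13.5 against 11.5 dpc, with a median of -1.24 and a range of -5.02 to -0.55, 2 of them at least 3-fold lower. In 12.5 against 11.5 dpc, where all 5 timing genes were also below 0, 6 of 6 erythroid markers were below 0 with a median of -1.39, 3 of them at least 3-fold lower. In 13.5 against 11.5 dpc endothelial markers had a median of -0.43 with 4 of 6 below 0 and 1 at least 3-fold lower (Tie1), macrophage markers -0.59 with 3 of 3 measured below 0, skeletal muscle markers 0.17 with 2 of 7 below 0 and 2 at least 3-fold higher (Myh3 at 3.03 and Acta1 at 1.98), and ectoderm markers -0.00 with 4 of 6 below 0. The 3 condensation markers were all below 0 in 13.5 against 11.5 dpc, Pcdh8 at -4.55. What part these cells have in the values of the timing genes was not tested.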

How the data were processed

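RNA from 3 pools was hybridised in dye-exchanged pairs on 6 arrays. Each deposited value is a log2 Cy5 over Cy3 ratio of a spot, which the authors quantified with GenePix Pro 4.1. The study's methods describe print-tip loess, yet column medians ranged from -0.36 to 0.73, so the scale is log2 but the centring of the deposited values is not settled. Absolute values above 16 (39 to 60 per array at a cap of 16.61) were set to missing, arrays were median-centred, and ratios were turned to later over earlier from the dyes in the labels. Differences of 12.5 and 13.5 against 11.5 dpc were fitted to the 6 arrays by least squares (Python 3.11.15, numpy 2.4.6, pandas 2.3.3; figures with matplotlib 3.10.9), giving 19077 genes. A gene is the mean of all spots carrying only its symbol: 56 spots had several symbols, none naming these genes, and 11511 had none. The code was tested on simulated data. A call is a 3-fold difference, and no p-value was computed. A background share is the share of all fitted genes or spots past the same limit.

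The genes and lists were chosen with earlier results of these data known. The named genes were the 7 timing genes, list members, and the 5 genes most like a timing gene past 3-fold; with none past it as a gene, single spots were used instead, after their values were seen. Which list members are printed was also chosen after seeing values. Alternatives were no centring, scaling, direct or indirect path, each dye combination, leaving out each array, spot rules, other thresholds and a dye term. Array number limits precision.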

Additional observations from a re-analysis of the deposited data

Results flagged for a closer look

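With spots averaged, Igf2bp1 is the 1 timing gene for which both arrays of the earlier day lay on one side of 0 and both arrays of the later day on the other. It had 0.49 and 0.51 for 13.5 over 12.5 dpc, against -0.25 and -0.53 for 12.5 over 11.5 dpc, and the fitted differences of the 2 days lay 0.89 log2 apart. This difference was not tested, since each age is 1 pool. Without centring the 2 fitted values were 0.15 and -0.01, beside medians of all genes of -0.32 and 0.44. Spot 3 of Igf2bp1 alone had opposite signs on the 2 arrays of the earlier day.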

How the results depend on the processing

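The count of timing genes at least 3-fold different in 13.5 against 11.5 dpc was 0, and it was 1 (Lin28b) from spots with a value on every array, from spots that were not dim or from the transcript the study lists for Lin28b, and 2 at a 2-fold threshold. In the other comparisons it was 0 under every alternative run. The count of 3-fold lower spots in 12.5 against 11.5 dpc was 2, and it was 0 without centring, 1 from the direct pair, Dye Combination 1, spots on every array, spots not dim or a 4-fold threshold, 3 from Dye Combination 2, 4 at 2-fold, and 1 to 2 when 1 array was left out. In 13.5 against 12.5 dpc it was 1, and it was 2 without centring or from the indirect path, 3 from Dye Combination 1 or at 2-fold, 0 from Dye Combination 2 or at 4-fold, and 0 to 2 when 1 array was left out. In 13.5 against 11.5 dpc it was 2, and it was 3 from the direct pair or Dye Combination 1, 4 from Dye Combination 2 or at 2-fold and 2 to 3 when 1 array was left out. The cause of these moves was not tested, except that thresholds and spot rules change what is counted. Spot 3 of Lin28b (-3.94 to -3.52) and spot 3 of Igf2bp3 (-2.75 to -1.61) stayed at least 3-fold lower in 13.5 against 11.5 dpc under all 12 alternatives that change arrays or scaling. The median of the 5 genes there lay below 0 under all 18 alternatives, between -1.19 (Dye Combination 2) and -0.10 (Dye Combination 1), and between -1.16 and -0.40 when 1 array was left out. The array numbers mark the dye combination and pair no embryos; with this replicate block as a term the median was -0.57 and Lin28b had -0.57 in 13.5 against 11.5 dpc and 0.75 in 13.5 against 12.5 dpc, and the counts of 3-fold lower spots were 2, 1 and 2 in the order above. Of the single-gene values, 198 stayed within 1 SD between the arrays of a pair and 57 moved further. Some alternatives could not change a given gene, as the listed Lin28b transcript cannot for Lin28a, so the 198 do not measure stability. The SD is from 2 arrays. For Lin28b in CA against MC it was 1.17, so the change from -0.36 to 0.75 was counted as staying.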
